A study of Homo sapiens with 7 samples.

Results

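The loci described here are the olfactory receptor genes of human chromosome 11, as measured in HepG2, an established line of human liver cancer cells. They were taken as every row of the expression table that lies on chromosome 11 and holds a symbol built from OR, a family number, subfamily letters and a member number, with or without a final P for a pseudogene. This rule gave 169 of the 30032 loci in the table, with 168 distinct symbols and 3 pseudogenes, OR5E1P, OR7E5P and OR5AK4P. The table holds 467 olfactory receptor loci in all, of which 224 lie on other chromosomes and 74 on haplotype sequences. The study mapped nucleosomes by native MNase-Seq, transcripts by RNA-Seq, and histone modifications by ChIP-Seq with antibodies against the activation marks H3K4me3, H3K9ac and H3K27ac and the repressive marks H3K9me3 and H3K27me3. All 7 samples are untreated, freshly cultured HepG2 cells with 1 sample per assay, so there are no groups, no replicates and no tests. Marked positions are therefore given with exact Clopper-Pearson 95% intervals, which cover counting error only. Coordinates of loci and nucleosomes are in hg19.

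Olfactory receptors are G protein-coupled receptors that bind odorants in the nose, and each mature olfactory sensory neuron expresses a single receptor gene from a single allele. The genes are small, have an uninterrupted coding exon and stand in tandem clusters, and they are known to be silent in most tissues outside the nose, with some exceptions. Class I receptors resemble the receptors of fish, and class II receptors form the larger group of land vertebrates. H3K4me3, H3K9ac and H3K27ac mark active promoters and enhancers, H3K27me3 is laid down by Polycomb complexes, and H3K9me3 marks heterochromatin, which covers olfactory receptor clusters in olfactory neurons.

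Sorted along the chromosome and split where neighbours were more than 500 kb apart, the loci formed 11 clusters. Cluster 1, from OR52B4 to OR52W1 at chr11:4388493-6221416, held 55 rows, and these were exactly the class I receptors (families 51, 52, 55 and 56). The other 114 rows were class II. Cluster 7, from OR4A16 to OR5AK4P at chr11:55110677-56805935, held 47 of them, and cluster 11, from OR6X1 to OR8A1 near the end of the long arm, held 20. Clusters 2, 3, 4, 8 and 9 held 8, 6, 7, 13 and 8 rows, clusters 5 and 6 held 2 each, and OR2AT4 stood alone as cluster 10. The median locus was 966 bp long, which is about the size of the coding exon. However, 29 rows carried the coordinates of 5 long merged loci, so that the 169 rows had 145 distinct locations. The largest were the OR8U1 block of 11 rows at chr11:56143100-56508560, the OR51B6 block of 8 rows at chr11:5361507-5526871 and the OR5E1P block of 5 rows at chr11:7700089-7957741. The OR9Q1 block of 3 rows lies at chr11:57791353-57949038, and both OR52E4 rows share chr11:5902338-5960842. Within a block, marks and spacing belong to the block and not to one receptor.

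The promoter sequences of these genes set them apart from most other genes, and 4 are shown because they belong to loci described for their transcripts or marks and include the member with the most CG dinucleotides. RefSeq promoter windows in GRCh38.p14, which run from 250 bases before to 50 bases after the annotated start, were found for 130 of the 168 symbols. The 250 bases before the start are printed 5′ to 3′ on the strand of the gene, in GRCh38.p14 coordinates that must not be read against the hg19 coordinates elsewhere, with each CG dinucleotide in capitals.
OR52N2, chr11:5808674-5808923, plus strand: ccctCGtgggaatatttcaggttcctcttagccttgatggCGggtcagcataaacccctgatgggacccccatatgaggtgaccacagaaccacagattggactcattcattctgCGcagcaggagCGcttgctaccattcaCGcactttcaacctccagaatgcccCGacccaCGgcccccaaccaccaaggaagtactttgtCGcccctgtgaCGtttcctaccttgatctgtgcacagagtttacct
OR5B12, chr11:58442237-58442486, minus strand: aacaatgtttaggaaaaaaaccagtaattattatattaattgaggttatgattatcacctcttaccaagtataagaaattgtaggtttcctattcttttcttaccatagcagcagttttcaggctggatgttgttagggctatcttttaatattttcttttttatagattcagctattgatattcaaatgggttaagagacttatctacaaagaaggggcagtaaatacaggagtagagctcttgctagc
OR52L1, chr11:5986986-5987235, minus strand: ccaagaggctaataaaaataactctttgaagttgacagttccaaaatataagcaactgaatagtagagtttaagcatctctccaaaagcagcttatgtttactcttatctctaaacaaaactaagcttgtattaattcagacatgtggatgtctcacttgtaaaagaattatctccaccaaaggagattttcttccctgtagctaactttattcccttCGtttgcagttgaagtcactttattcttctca
OR4C16, chr11:55571878-55572127, plus strand: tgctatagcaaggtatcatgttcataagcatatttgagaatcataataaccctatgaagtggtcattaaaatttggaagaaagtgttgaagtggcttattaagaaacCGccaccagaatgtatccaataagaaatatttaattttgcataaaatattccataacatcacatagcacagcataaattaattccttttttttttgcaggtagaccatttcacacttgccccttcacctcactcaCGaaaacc
OR52N2 had 54% GC and 9 CG dinucleotides in the printed bases. By the shift between builds seen at neighbouring receptors, its RefSeq start lies over 10 kb upstream of its hg19 locus. Its printed bases thus lie outside the locus used for its FPKM and the 10 kb window used for its marks. OR5B12, which had RNA-Seq signal in both runs, had 32% GC and no CG dinucleotide. OR52L1, with H3K27me3 inside its locus, had 1, and OR4C16, with H3K9me3 inside its locus, had 2. OR4C16 has ATG exactly at its annotated start, so its printed bases need not hold the true promoter.

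Over the full 300 bp windows, the median GC content of the 130 member promoters was 37.0%, against 59.3% for 1355 other chromosome 11 genes and 58.3% for all 27305 genes. The median number of CG dinucleotides was 1 in the members and 14 in all genes. In GC content the members ran from 24.3% in OR5I1 to 57.0% in OR51E1, both named after their values had been seen. Only OR52N2, with 14, reached 10 CG dinucleotides (0.769% of members), as did 15283 of all genes, and 35 members (26.9%) had none at all, compared with 4.16% of all genes. The 177 olfactory receptor promoters of other chromosomes were like the members, with a median of 38.3% GC and 1 CG dinucleotide. Class I and class II windows had medians of 40.0% and 37.0% GC. For 63 members (48.5%) the window had ATG exactly at the annotated start, so the start is that of the coding sequence and the window need not hold the true promoter. These had a median of 34.3% GC, and the rest 39.7%.

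**Figure D1:**
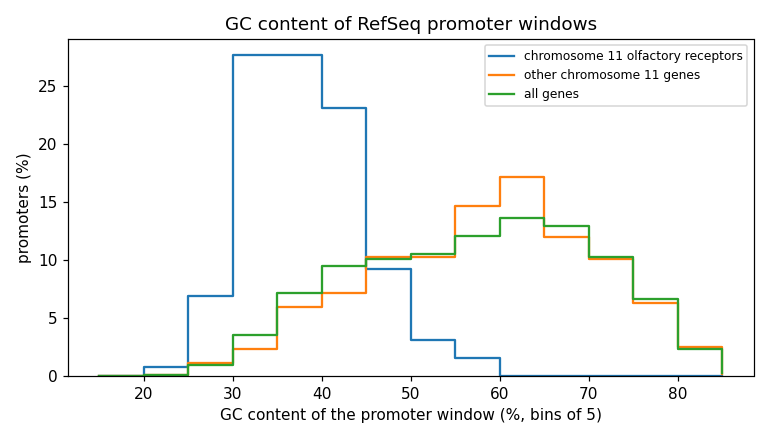
GC content (%, bins of 5) of RefSeq promoter windows of 300 bp against the percentage of windows in each bin, for 130 chromosome 11 olfactory receptors, 1355 other chromosome 11 genes and all 27305 genes. The receptors lie to the left, with a median of 37.0%, and the other curves centre near 58.3% and 59.3%.

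Short motifs were counted in the same windows. TATAAA, the TATA box core, was present on either strand in 46 member windows (35.4%) and in 12.0% of all windows. TAATTA, a palindromic core of many homeodomain binding sites such as those of LHX2, was present in 31 member windows (23.8%) against 4.98% of all. CCCNNGGG, the palindromic core of the sites of EBF factors, was present in 9 member windows (6.92%) against 18.6% of all. Matches of TATAAA and TAATTA may overlap and were counted separately. The 177 olfactory receptor promoters of other chromosomes had similar shares, with TATAAA in 34.5%, TAATTA in 21.5% and CCCNNGGG in 7.91%. Windows of equal GC content were not compared. Whether the motif shares follow from the low GC content of the receptor windows was thus not tested. A match describes the letters of the window only.

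Transcripts of these genes were almost absent. The RNA-Seq sample has 2 value columns, called run 1 and run 2 here, in FPKM (fragments mapped to a locus, scaled to its length and to the size of the library). 156 of 169 rows were listed at 0 in both, and 0 reached a mean FPKM of 1, a level that 39.3% of all loci reached. Only 13 rows (7.69%) were above 0 in either run, compared with 70.9% of all loci, and 5 in both. Each run had 9 rows above 0. The sum over all members was 0.666 FPKM in run 1 and 0.901 in run 2, less than the median of 1.76 FPKM for a single locus among the 1177 named non-olfactory loci of chromosome 11. The 224 olfactory receptor loci of other chromosomes were similar, with 19 (8.48%) above 0 in either run and 1 reaching 1 FPKM.

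The highest member was OR52N4 of cluster 1, with 0.126 FPKM in run 1 and 0.360 in run 2. It was the only member with a mean of at least 0.1, a level reached by 55.9% of all loci. OR5B12 of cluster 8 had 0.0610 and 0.0690 FPKM, and OR56B4 had 0.0588 and 0.0682. OR51E2, known from prostate and other tissues outside the nose as a receptor for short fatty acids, had 0.0786 and 0.0446 FPKM, and OR51B4 had 0.0275 and 0.0602. These 5 were the rows above 0 in both runs. The pseudogene OR5E1P had 0.132 FPKM in run 1 and 0 in run 2, OR51B2 had 0.0660 and 0, and OR52N2 had 0.0625 and 0. In run 2 alone, the row that joins OR51B5 and OR51I1 had 0.121 FPKM and the row of OR51B5 had 0.0776, both in the OR51B6 block. The last 3 rows above 0 fell outside the first 10 by mean and are named because so few remained, namely OR52W1 with 0 and 0.0584 FPKM, OR52L1 with 0.0539 and 0, and OR51E1, the neighbour of OR51E2, with 0 and 0.0416.

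To show what these values stand for, the lowest non-zero FPKM among the 1460 unshared loci of 900 to 1200 bp was 0.0392 in run 1 and 0.0339 in run 2, with 10th percentiles of 0.0475 and 0.0537. Most members above 0 lay close to these values, and which rows were above 0 differed between runs. Class I held 11 of the 13 rows, or 11 of 55 (20%), and class II held 2 of 114 (1.75%). The rows are not independent, since class I is cluster 1 alone and some rows share coordinates, so no interval is given. None of the 47 rows of cluster 7 and none of the 20 of cluster 11 was above 0. All 169 rows carried the status NOTEST, so the submitters' tool compared none of them between the columns.

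**Figure D2:**
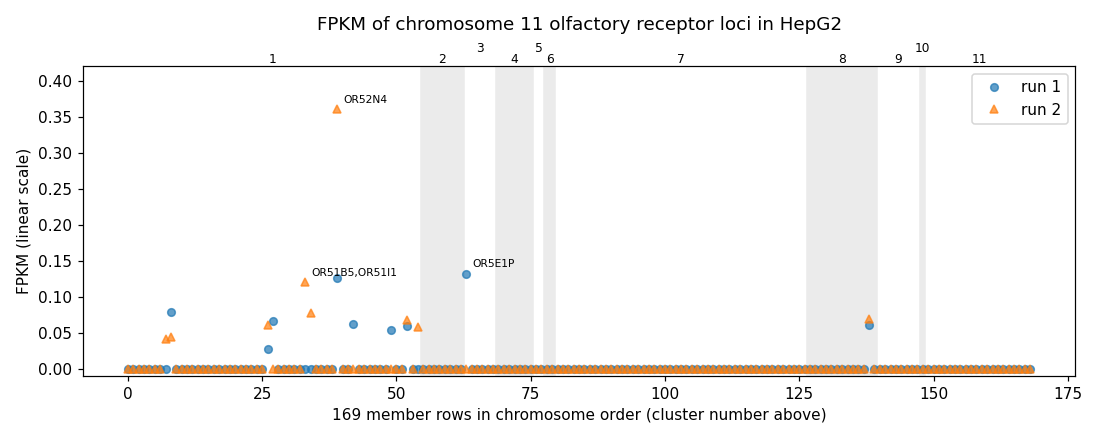
FPKM on a linear scale of the 169 member rows in chromosome order, as circles for run 1 and triangles for run 2, with cluster numbers above and alternate clusters shaded. Nearly all points lie at 0, 11 of the 13 rows above 0 lie in cluster 1, and OR52N4 in run 2 is the highest at 0.360.

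The identity of the cells and the rest of the odorant pathway were read from fixed gene lists. All 10 hepatoma markers were above 1 FPKM, from 56.6 to 10011 for ALB, which encodes albumin. The list of olfactory signalling and receptor choice names 25 symbols, of which GRK3 is measured under its older symbol ADRBK2. Of the 24 measured genes, 8 reached 1 FPKM and 8 were at 0. Among all loci, 39.3% reached 1 FPKM and 29.1% were at 0 in both runs, shares close to those of the list. The 8 that reached 1 FPKM act in many cells and comprised GNB1 (91.1), KDM1A (41.7), ARRB2 (16.5), ATF5 (12.8), LDB1 (10.7), ADRBK2 (10.6), ADCY3 (5.41) and RIC8B (2.87 FPKM). KDM1A encodes a histone demethylase and LDB1 the LHX2 cofactor that joins receptor enhancers in neurons. OMP, the olfactory marker protein, CNGA2, the cyclic nucleotide-gated channel, RTP1 and RTP2, which carry receptors to the membrane, LHX2, EBF1, SLC17A6 and STOML3 were all at 0. GNAL, the olfactory G protein subunit, had 0.630 FPKM. Among 8 olfactory neuron markers, 5 were at 0 and only ADCY3 exceeded 1.

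Activation marks were nearly missing around the receptors. Windows from 10 kb before to 10 kb after each locus merged into 85 stretches with 17937 nucleosome positions, of which 175 (0.976%) carried a mark, against 1.43% of positions in the genome. H3K4me3 was found at 0 of the 17937 positions, which allows a share of up to 0.0206% by the exact interval, while the genome share was 0.603% and that of the named non-olfactory loci of chromosome 11 was 1.10%. Accordingly, no position carried all 3 activation marks, against 0.302% in the genome. H3K9ac was found at 3 positions (0.0167% against 0.539%). H3K27ac was found at 24 (0.134%, interval 0.0857 to 0.199%, against 0.674%). At chromosome 11 positions over 10 kb from any named locus, a comparison chosen after the data were seen, H3K4me3 was at 0.0909% (0.0802 to 0.103%), H3K9ac at 0.130% (0.117 to 0.144%) and H3K27ac at 0.216% (0.199 to 0.233%). The receptors lay below these intervals for H3K4me3 and H3K9ac, whereas for H3K27ac the intervals met at 0.199%. The 24 H3K27ac positions were bunched together, so their interval understates the uncertainty.

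All 24 H3K27ac positions lay in the OR9Q1 block, whose 3 rows OR9Q1, OR6Q1 and OR9I1 were at 0 FPKM in both runs. They formed a stretch of 13 positions over 5.67 kb at chr11:57824232-57829896, a stretch of 10 over 3.63 kb at chr11:57930922-57934551 and a single position at chr11:57796337-57796476. None of them also carried H3K4me3 or H3K9ac. Of the H3K27ac positions, 87.5% had another within 1 kb, close to the 90.2% of all H3K27ac positions in the genome. Without this block the H3K27ac share of the members was 0. The H3K9ac positions were scattered, with 2 in the OR5E1P block (chr11:7914952-7915091 and chr11:7946194-7946333) and 1 at chr11:123892522-123892661, which is 1129 bp from OR10G9 and also within 10 kb of OR10G4 and OR10G8. No locus with its own coordinates held an activation mark.

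Pooled over all members, both repressive marks were more frequent than in the genome, though each covered few positions and the clusters differed. H3K27me3 was found at 76 of 17937 positions (0.424%, interval 0.334 to 0.530%), which is 2.29 times the genome share of 0.185%. H3K9me3 was also found at 76 positions (0.424%), 1.74 times the genome share of 0.243%. Of the 175 marked positions, 72 carried H3K27me3 alone, 72 carried H3K9me3 alone and 4 carried both, and the other 27 carried an activation mark. At named non-olfactory loci of chromosome 11 the shares were 0.152% and 0.162%. Since 52.7% of those loci reached 1 FPKM, the shares were also computed at the 398 of them with a mean FPKM under 0.1, a set chosen after the data were seen. There H3K27me3 was at 0.227% (interval 0.205 to 0.250%) and H3K9me3 at 0.206% (0.185 to 0.229%), both below the member intervals, while H3K4me3 was still at 0.456%.

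At the chromosome 11 positions over 10 kb from any named locus, H3K27me3 was at 0.185% (0.170 to 0.202%), again below the receptors, but H3K9me3 was at 0.364% (0.342 to 0.386%), within the interval of the receptors. A difference in H3K9me3 between the receptors and these positions was thus not detectable at this count. The receptor loci of other chromosomes had 0.352% H3K27me3 (0.279 to 0.439%) and 0.428% H3K9me3 (0.347 to 0.522%), and both intervals overlapped those of the members. They did have 0.236% H3K4me3. At the ZNF genes of chromosome 19, a family known for H3K9me3 over its gene bodies, H3K9me3 was at 0.295% and H3K27me3 at 0.122%.

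The shares of the repressive marks differed between clusters 1 and 7, which hold the most rows. In cluster 1, H3K27me3 was at 33 of 5506 positions (0.599%, 0.413 to 0.841%) and H3K9me3 at 18 (0.327%, 0.194 to 0.516%). In cluster 7, H3K27me3 was the rarer mark, at 3 of 4825 positions (0.0622%, 0.0128 to 0.182%), and H3K9me3 was at 36 (0.746%, 0.523 to 1.03%). Its H3K27me3 share was thus below the genome share of 0.185%. Of the 76 H3K9me3 positions of all members, 36 lay in cluster 7. The intervals of clusters 1 and 7 did not overlap for either mark. Neither cluster had an activation mark within 10 kb of a member. Over the entire span of each cluster there were 49 H3K27me3 and 35 H3K9me3 positions of 9198 in cluster 1, and 12 and 71 of 8178 in cluster 7. Of the 47 locations in cluster 1, 26 (55.3%) had H3K27me3 and 15 (31.9%) had H3K9me3 within 10 kb. Of the 37 in cluster 7, 3 (8.11%) had H3K27me3 and 20 (54.1%) had H3K9me3. The order of the marks within cluster 1 depended on the window, and their intervals overlapped. Within 2 kb of its loci H3K27me3 was at 0.378% of positions and H3K9me3 at 0.336%, and inside the loci both were at 0.480%. In cluster 7 the shares inside the loci were 0.0499% for H3K27me3 and 0.799% for H3K9me3.

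**Figure D3:**
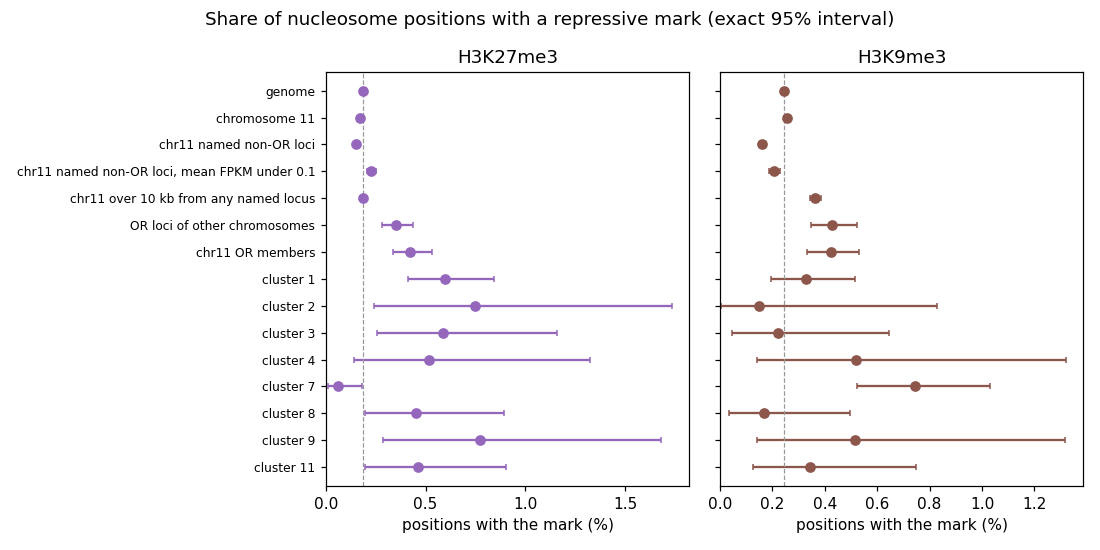
Percentage of nucleosome positions with H3K27me3 (left) and H3K9me3 (right) within 10 kb of loci, for the genome, chromosome 11, comparison sets, all members and each cluster of at least 3 members. Points are shares, bars are exact 95% intervals and the dashed line is the genome share; cluster 7 is lowest for H3K27me3 (0.0622%) and highest for H3K9me3 (0.746%).

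The other clusters of at least 3 rows had H3K27me3 shares above that of cluster 7, from 0.453% in cluster 8 to 0.774% in cluster 9. Of their H3K27me3 intervals, only that of cluster 4 (0.141 to 1.32%) overlapped that of cluster 7. The intervals were wide, since cluster 4 had 772 positions and cluster 9 had 775. Their H3K9me3 shares ran from 0.149% in cluster 2 to 0.516% in cluster 9 and 0.518% in cluster 4. Those of clusters 2, 3 and 8 lay below the genome share of 0.243%, though their intervals included it. Over its entire span cluster 4 had the order of cluster 7, with 14 H3K9me3 positions (1.02%, 0.559 to 1.70%) and 5 H3K27me3 positions (0.364%) of 1373. Cluster 2 had 5 H3K27me3 positions and 1 H3K9me3 position of 669. Cluster 11 had 8 and 6 of 1741. Class II as a whole had 0.346% H3K27me3 and 0.467% H3K9me3.

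By location, 58 of 145 windows (40.0%) held at least 1 H3K27me3 position, against 30.3% of 17533 named loci in the genome, and 55 (37.9%) held H3K9me3, against 29.9%. 20 windows held both, a count that was not made for the named loci and so has no comparison. No mark of any kind was held by 51 (35.2%), against 12% of named loci. Activation marks were in reach of few windows, with H3K9ac in 4 (69.5% of named loci), H3K27ac in 1 (63%) and H3K4me3 in 0 (69.5%). Most named loci are longer than a receptor gene, so windows of equal length, 10 kb to either side of the locus midpoint, were also compared. Then 36.6% of receptor windows had H3K27me3, against 11.6% of named loci, and 33.1% had H3K9me3, against 10.9%. An activation mark was present in 2.07% against 39.6%, and no mark in 40.7% against 45.5%.

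**Figure D4:**
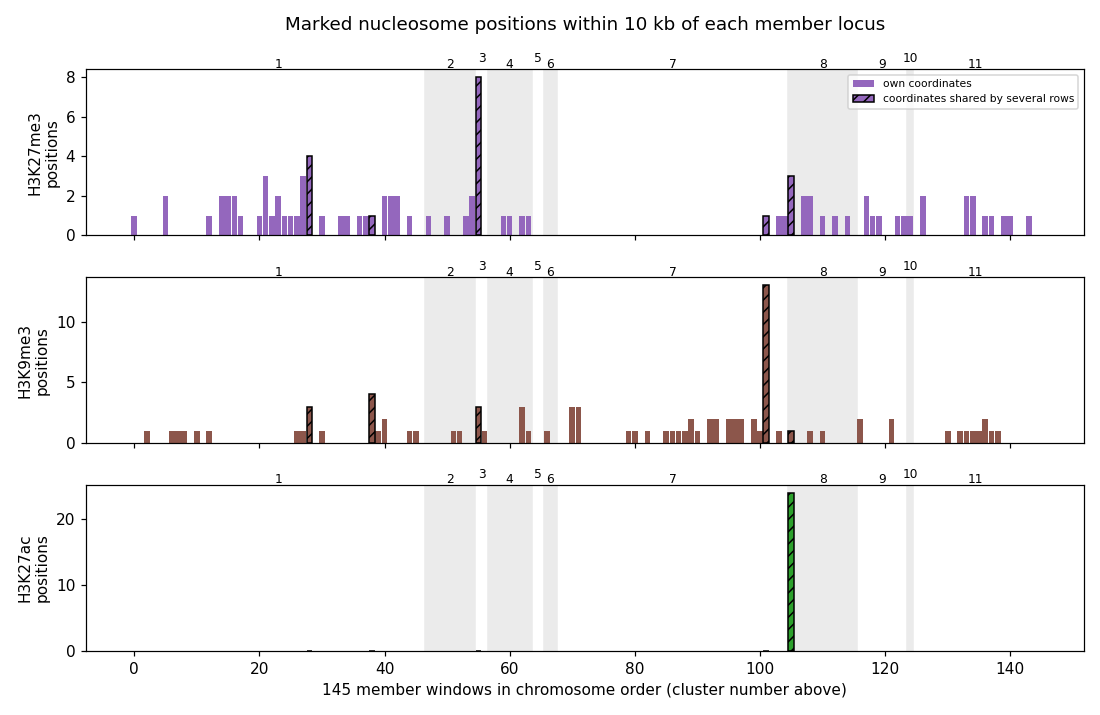
Number of H3K27me3, H3K9me3 and H3K27ac positions within 10 kb of each of the 145 member locations in chromosome order, with cluster numbers above and the 5 merged blocks hatched. H3K27me3 bars are spread over most clusters with only 3 locations in cluster 7, H3K9me3 bars are dense in cluster 7 with 13 in the OR8U1 block, and the 24 H3K27ac positions stand in the OR9Q1 block.

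Single receptors held very few marked nucleosomes. The OR5E1P block had the most H3K27me3 with 8 positions of 1339, followed by the OR51B6 block with 4 of 884, and by OR52E2, OR51B2 and the OR9Q1 block with 3 each. At OR52E2 these lay 5244 to 7019 bp from the locus, and at OR51B2 2869 to 6984 bp. The OR8U1 block had the most H3K9me3 with 13 of 1883, followed by OR52E4 with 4 of 393, and by the OR51B6 block, the OR5E1P block, OR4C45, OR4C15 and OR4C16 with 3 each, the last 3 being single loci. Of the 140 locations that are not merged, 10 held H3K27me3 inside the locus, among them OR52L1 and OR2AT4, and 7 held H3K9me3. Marks inside the locus were not counted for other named loci, so whether these counts are unusual was not tested. OR52B6 held both on neighbouring nucleosomes, H3K27me3 at chr11:5602317-5602456 and H3K9me3 at chr11:5602462-5602601. OR4C16 held H3K9me3 on a pair of overlapping positions, chr11:55339887-55340026 and chr11:55340007-55340146. OR52B6, OR4C16, OR52L1 and OR2AT4 were named after their values had been seen.

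The marks stood mostly alone. Of the 76 H3K27me3 positions at the receptors, 17.1% had another within 1 kb (genome 20.8%), and of the 76 H3K9me3 positions 23.7% did (genome 19.6%). For H3K27me3, 23 positions lay in a locus, 7 within 2 kb and 46 at 2 to 10 kb. For H3K9me3 these numbers were 32, 9 and 35. The 4 positions with both marks lay near OR51B4, in OR52E4, near OR10W1 and in the row of OR8G1 and OR8G5, named here after their values had been seen.

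Activation marks were scarcer between the receptors than around most of the clusters. From the first to the last receptor, H3K4me3, H3K9ac and H3K27ac each had a lower share than in the flank from 100 to 500 kb in 7 of the 8 clusters with at least 3 loci. Far flanks of some neighbouring clusters overlapped in part, so the 8 comparisons were not independent. Cluster 9 ran the other way. It held 41 of the 51 H3K4me3 positions inside clusters, with 2.26% of positions inside, 1.24% in the first 100 kb outside and 0.510% from 100 to 500 kb. Clusters 4 and 7 had no activation mark inside or in the first 100 kb. Pooled over the 8 clusters, H3K4me3 was at 0.175% of positions inside (0.130 to 0.230%), 0.703% in the near flank and 0.881% in the far flank, and without cluster 9 these shares were 0.0366%, 0.622% and 0.916%. H3K9ac was at 0.151%, 0.716% and 0.700%, and inside the clusters other than 9 at 0.0622%. H3K27ac was at 0.165%, 0.615% and 0.785%, and inside the clusters other than 9 at 0.102%. The 51 H3K4me3 positions inside the clusters all lay over 10 kb from any receptor locus.

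For H3K27me3 the share inside was above that of the far flank in all 8 clusters, which were not independent. The inside and far intervals were separate only in cluster 1 (0.394 to 0.704% inside, 0.0844 to 0.384% far). Pooled shares were 0.357% (0.292 to 0.432%) inside, 0.276% (0.173 to 0.418%) in the near flank and 0.213% (0.163 to 0.274%) in the far flank. For H3K9me3 the share inside was above the far flank in 4 clusters and below it in 4. Its pooled shares were 0.498% (0.420 to 0.585%), 0.314% (0.203 to 0.463%) and 0.273% (0.216 to 0.342%). For both marks the pooled inside interval overlapped that of the near flank but not that of the far flank.

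The clusters enclose 22 named loci that are not olfactory receptors. Of these, 9 had an activation mark within 10 kb, against 74.7% of named loci in the genome. Some of the 22 share coordinates and so share their marks. A mean of 1 FPKM was reached by 5 of the 22, against 52.7% of named non-olfactory loci of chromosome 11. They were PATL1 (14.2 and 14.4), OSBP (12.1 and 12.6), TRIM5 (6.92 and 7.34), TRIM21 (3.17 and 3.03) and TRIM22 (2.05 and 2.59 in runs 1 and 2). TRIM5, TRIM21 and TRIM22, which act in antiviral defence, stand among the class I receptors of cluster 1. The beta-globin genes lie in the same cluster and resembled their receptor neighbours. HBD, HBG1 and HBG2 were at 0 in both runs, HBB had 0.0749 and 0 FPKM, and HBE1, the embryonic globin, had 0.253 and 0.0604. None of these 5 had an activation mark within 10 kb, and HBB had 2 H3K27me3 positions and 1 H3K9me3 position. 23 receptor rows had windows that overlapped the window of a named neighbour. Leaving these out could only leave H3K4me3 at 0. It gave 0.162% for H3K27ac, 0.404% for H3K27me3 and 0.472% for H3K9me3.

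Nucleosome spacing at the receptors was close to that of the genome. The median distance from the start of a position to the next was 182 bp (interval 180 to 183 bp), against 180 bp in the genome, 178 bp at named non-olfactory loci of chromosome 11 and 180 bp at the olfactory receptors of other chromosomes. The 10th and 90th percentiles were 120 and 300 bp, and 22.3% of neighbours overlapped, being closer than the 140 bp length of a position, against 23.3% in the genome. The positions numbered 4.95 per kb, compared with 5.16 at the other named loci. Many deposited starts fall on a grid of 5 bp, so differences of a few base pairs are near the resolution. Clusters 7 and 11 had a median of 185 bp, and cluster 9 had 176 bp.

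Most single windows were alike, with a median of 106 positions, but a few stood apart. OR4P4, OR4S2 and OR4C6, which follow each other at chr11:55405834-55433572 in cluster 7, had the longest median spacings, 300, 299.5 and 236 bp, and only 64, 61 and 75 positions. None of them had a marked position. OR52H1 of cluster 1 had the shortest, 164 bp with 111 positions. OR52K2 and OR56A1 of cluster 1, OR4S1 of cluster 4 and OR4D9 of cluster 9 followed with a tie at 165 bp. OR52N4, the receptor with the highest FPKM, had 220 bp and 90 positions and no mark. OR51A4 and OR51A2 had 58 and 65 positions and share a gap of 8705 bp without a called position. Mappability and copy number could not be read, so whether they lower the number of called positions in any of these windows was not tested. OR52N4, OR51A4 and OR51A2 were named for spacing after their values had been seen.

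**Figure D5:**
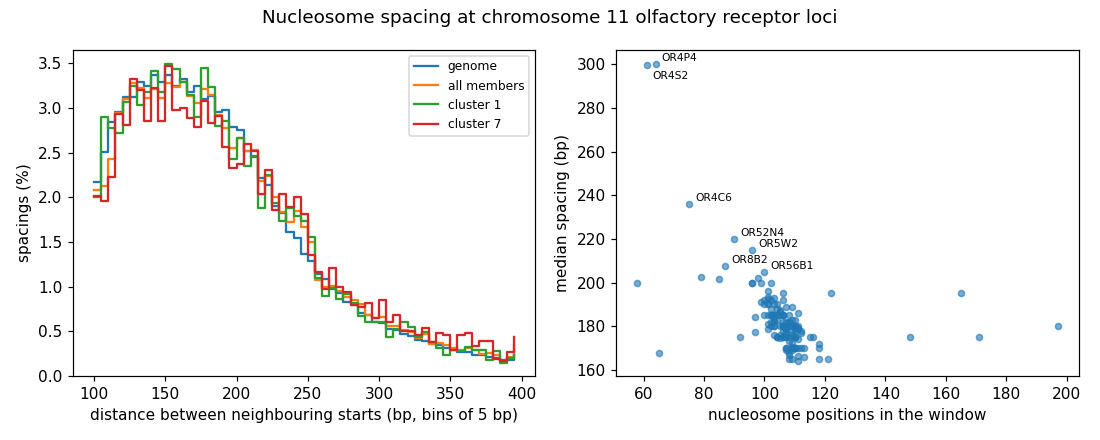
Left, distribution of distances between neighbouring nucleosome starts (bp, bins of 5 bp) as percentage of spacings for the genome, all members, cluster 1 and cluster 7. Right, median spacing (bp) against the number of positions for each of the 140 unmerged member windows; the left curves nearly coincide, and OR4P4 and OR4S2 lie far above the rest with 64 and 61 positions.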

How the data were processed

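The authors deposited nucleosome positions, ChIP-Seq peaks and RNA-Seq values of HepG2 cells. Per the submitters' processing notes, BWA and hg19 were used for ChIP-Seq and MNase-Seq, and TopHat2 2.1.0, Bowtie, HOMER 4.7, edgeR and hg19 for RNA-Seq. Positions were called with DANPOS and peaks with NUCLIZE, which ties each peak to a position. The authors deposited RNA-Seq values as FPKM in 2 columns of 1 sample. Whether these are cultures or sequencing runs is not stated, and their spread may be technical. The columns of the authors' own comparison (fold changes, p-values and q-values) were not used. The position and peak lists give coordinates and identifiers only, so read depth is unknown.

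Each peak was matched to its position by identifier. A position belonged to a window when its midpoint did. Classes, clusters, shares and spacings were computed with scipy 1.17.1, pandas 2.3.3 and numpy 2.4.6 under Python 3.11.15 and drawn with matplotlib 3.10.9, and these steps were tested on simulated data. The members, gene lists and comparison sets were chosen with earlier results of these data known. The named receptors were the 10 with the highest mean FPKM, those with activation marks inside the locus, the 5 with the most of each repressive mark or of activation marks, and the 3 shortest and 3 longest median spacings, with cluster ends and exceptions stated in the text. Alternatives changed the windows, FPKM limits, gaps, flanks, mark assignment and members.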

Additional observations from a re-analysis of the deposited data

How the results depend on the processing

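Of 125 alternatives, 103 were counted as leaving the value the same, 0 as reversing it and 22 as moving it. For shares and spacings, the same meant within the counting interval. The limit of 0.1 FPKM was counted as a move although its member count lay within the interval. Cluster counts have no such interval, and a change from 11 to 12 was counted as the same. With a limit of 0.1 FPKM in place of 1, 1 member passed, and among loci above 0 in either run 55.4% of all loci reached 1 FPKM. A gap of 1000 kb gave 7 clusters. In windows of 20 kb H3K4me3 was at 0.0250%. H3K27ac was at 0.407% inside loci and 0.275% within 2 kb (class II 0.378%), at 0.303% in flanks of 50 kb, and at 0 in midpoint windows, without shared coordinates and without cluster 8, the last 3 added after seeing the data. The OR9Q1 block holds all 24 positions, and the last 2 of these settings leave it out, while its midpoint window does not reach them. Without cluster 9, also added after seeing the data, the shares inside clusters were 0.0366% for H3K4me3, 0.0622% for H3K9ac and 0.102% for H3K27ac. With any overlap of 1 bp, H3K27me3 was at 0.619%, H3K9me3 at 0.608% and cluster 7 H3K9me3 at 1.06%. H3K9me3 inside loci was at 0.543%. H3K27me3 in cluster 1, which is class I, was at 0.378% within 2 kb and 0.408% within 5 kb. Spacing between neighbours that do not overlap had a median of 200 bp. The cause of the other moves was not tested. No paired analysis was possible because each assay has 1 sample and no result comes from a test. Depth is unknown, so a missing mark may be one below detection.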

Other observations

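The erythroid list that accompanies the globin neighbours was low throughout, with 0 of 6 genes at 1 FPKM and 3 at 0. Among all loci these shares were 39.3% and 29.1%. HBA1 had the highest mean of the list at 0.0434 FPKM. OMP, which was at 0 FPKM, nevertheless had 9 H3K4me3, 7 H3K9ac and 13 H3K27ac positions within 10 kb of its locus, and RTP2, also at 0 FPKM, had 17, 15 and 15. EBF1, at 0 FPKM, had 8 H3K27me3 and 8 H3K9me3 positions and no activation mark. The odorant pathway genes at 0 FPKM thus differed in their marks from each other, whereas no receptor had an H3K4me3 position.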
